A study of Drosophila melanogaster with 8 samples.

Results

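The core factors of nonsense-mediated mRNA decay (NMD) described here are the 6 genes Upf1, Upf2, Upf3, Smg5, Smg6 and nonC. They were found by symbol in a table of 13656 genes measured by RNA sequencing of fly heads, and 11 of its 26309 listed transcripts belong to them. The heads came from female Drosophila melanogaster aged 5 days, with 40 heads per genotype, and every transgene was expressed through Elav, a driver of neurons, so the other cells of the head are not targeted but are measured. UPF1 RNAi directs RNA interference at Upf1 and is represented by 1 library, since 1 named column of the table is its own, and the other library is not analysed here. PR36 encodes a repeat of proline and arginine, (G4C2)36 carries the GGGGCC repeat of the gene C9orf72, which when expanded causes motor neuron disease and dementia, and PA36, a repeat of proline and alanine, is the control in the labels, each with 2 libraries. All groups, the control included, thus carry a transgene under the neuronal driver. The labels do not say that replicates are separate cultures of flies. Their spread, which every p-value here rests on, may be technical. By its title the study concerns NMD in the toxicity of these repeats, and the comparisons below ask whether the genes of the machinery differed in their own expression.

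NMD removes mRNAs whose translation stops too early. The helicase Upf1 is recruited to the terminating ribosome, Upf2 and Upf3 bind it in turn, and the kinase Smg1, which in flies is encoded by nonC, phosphorylates it. Phosphorylated Upf1 binds Smg5, an adaptor that brings in further decay enzymes, and Smg6, an endonuclease that cuts the mRNA near the stop. Flies without Upf1 or Upf2 die, whereas flies without Upf3 can live, and in human cells several mRNAs of this machinery are themselves degraded by it.

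The genes lie on 4 chromosome arms in BDGP6. Upf1 (FBgn0030354) spans 11899996 to 11905371 on the X chromosome, Upf2 (FBgn0029992) 8070244 to 8075466 and nonC (FBgn0263968) 6824496 to 6838122 on the same chromosome. Upf3 (FBgn0034923) lies on 2R from 23893066 to 23894987, Smg5 (FBgn0019890) on 2L from 13898828 to 13904661 and Smg6 (FBgn0039260) on 3R from 25029429 to 25033465. All 11 transcripts that the reference annotation gives these genes were listed. Within each gene that has several, the transcripts have the same coding exons and differ in their untranslated regions (UTRs). For Upf1 these are Upf1-RA, with a 3′ UTR of 1242 nt, and Upf1-RB, with one of 793 nt. Upf3 shares 112 exonic bases with DNAlig1 on the opposite strand, which was listed at a mean of 2.39 TPM, and whether reads were counted by strand is not stated.

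Values are TPM, the share of a library's reads that a transcript takes after scaling by its length, and those of a gene's transcripts were summed. Over the 7 libraries, Smg5 averaged 52.7 ± 10.7 TPM and Smg6 47.8 ± 12.3 TPM (SD, n = 7 each), which placed both above at least 77.6% of the 9287 genes tested. Upf1 averaged 16.2 ± 3.85 TPM, Upf3 9.70 ± 1.49 TPM, nonC 8.92 ± 2.42 TPM and Upf2 6.99 ± 1.09 TPM (SD, n = 7 each). The adaptor and the endonuclease were thus listed several times higher than the helicase they bind. Smg6 exceeded Upf1 in 7 of 7 libraries without overlap of their ranges. The other neighbours in this order overlapped: Smg5 exceeded Smg6 in 6 of 7 libraries, Upf1 exceeded Upf3 in 7, Upf3 exceeded nonC in 5 and nonC exceeded Upf2 in 6. TPM keep no read number, so the depth is unknown, and in whole heads a change in the number of neurons cannot be told apart from a change in RNA per neuron.

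**Figure D1:**
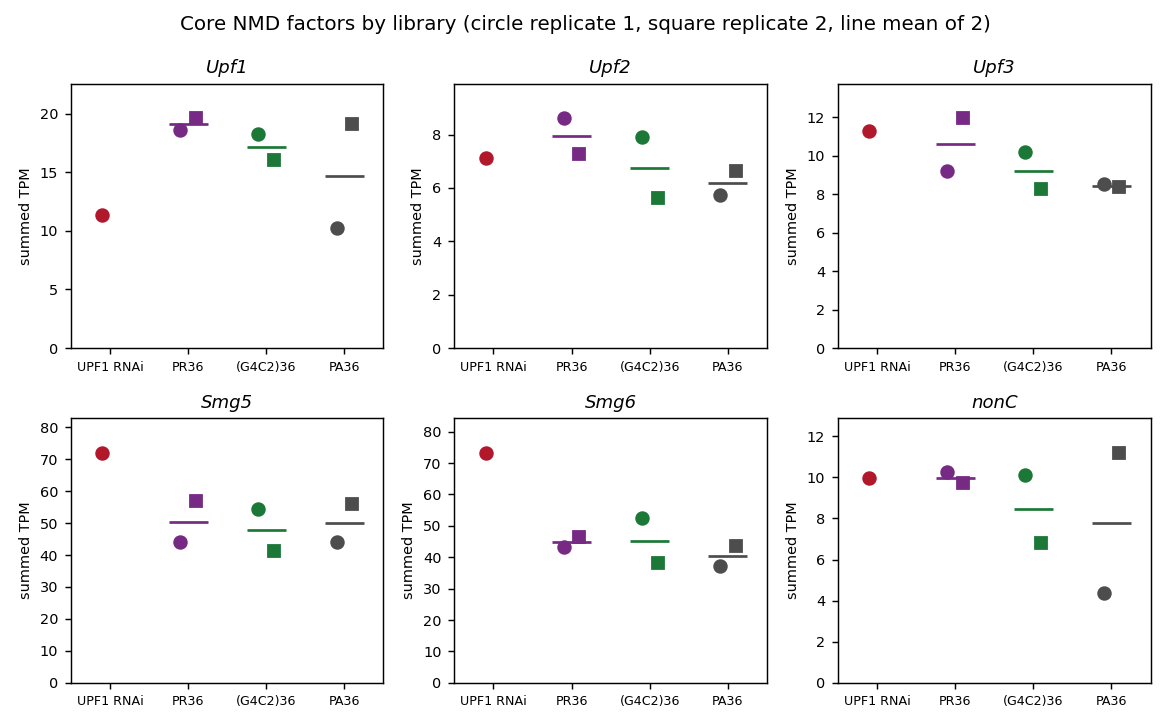
Summed TPM (vertical axis, from 0) of each of the 6 factors in each library, by genotype, with a point per library and a line at the mean of 2 libraries. Smg5 and Smg6 are highest in UPF1 RNAi at 71.9 and 73.2 TPM, and Upf1 and nonC are lowest in PA36 replicate 1 at 10.3 and 4.38 TPM.

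UPF1 RNAi against PA36 sets the knockdown of the helicase beside the control repeat. Upf1 itself was listed at 11.3 TPM in the UPF1 RNAi library and at 10.3 and 19.1 TPM in those of PA36. As listed, the knockdown library therefore lay between the control libraries, close to the lower. PR36 had 18.6 and 19.6 TPM and (G4C2)36 had 18.2 and 16.0 TPM, so 5 of the 6 libraries without the RNAi construct lay at 16.0 TPM or more. The log2 fold change was -0.29 (95% interval -1.17 to 0.60, limma adjusted p = 0.96), on the scale of log2(TPM + 1) used for every fold change here. Without PA36 replicate 1 it was -0.71 (adjusted p = 1), and without PA36 replicate 2 it was 0.13 (adjusted p = 0.99). Against the mean of PA36, PR36 and (G4C2)36 it was -0.51 (95% interval -1.29 to 0.26, limma adjusted p = 0.98), which lies at percentile 9.44 of all genes and did not pass. After rescaling by the median of ratios, which removes a shift common to most genes, Upf1 was at 11.15 TPM in UPF1 RNAi. PA36 then had 11.4 and 19.05 TPM, and PR36 and (G4C2)36 lay between 15.44 and 18.85 TPM. The knockdown library was then the lowest, by a small margin below PA36 replicate 1. A lower level of the targeted gene in UPF1 RNAi was thus not resolved from the spread of these libraries.

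The low Upf1 of PA36 replicate 1 lay in 1 of its transcripts. Upf1-RB, with the shorter 3′ UTR, was listed at 2.74 TPM in UPF1 RNAi, 6.23 and 8.10 TPM for PR36 and 8.51 and 7.03 TPM for (G4C2)36. In PA36 it was listed at 0 and 6.55 TPM. Leaving PA36 replicate 1 aside, the knockdown library had the lowest Upf1-RB. Upf1-RA stood at 8.60 TPM in UPF1 RNAi, 12.4 and 11.5 TPM for PR36, 9.73 and 8.99 TPM for (G4C2)36 and 10.3 and 12.6 TPM for PA36. As listed, this transcript was lowest of the 7 libraries in UPF1 RNAi, by a small margin below (G4C2)36 replicate 2. After rescaling, Upf1-RA was lower in (G4C2)36 replicate 1 than in UPF1 RNAi. The median-of-ratios factors, by which values are divided, were 1.181 and 1.017 in these libraries. Its fold change against PA36 was -0.37 on the log2 scale (95% interval -1.06 to 0.33, limma adjusted p = 0.92 over 15794 transcripts). Upf1-RA made up 75.8% of the gene's TPM in UPF1 RNAi, between 53.4% and 66.5% in PR36 and (G4C2)36, and 100% and 65.8% in PA36. An exact 0 can be a failed estimate. In PA36 replicate 1, 1.18% of the 10359 transcripts with a mean of at least 5 TPM were listed at 0, against 0.811% to 1.02% in the 6 other libraries.

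**Figure D2:**
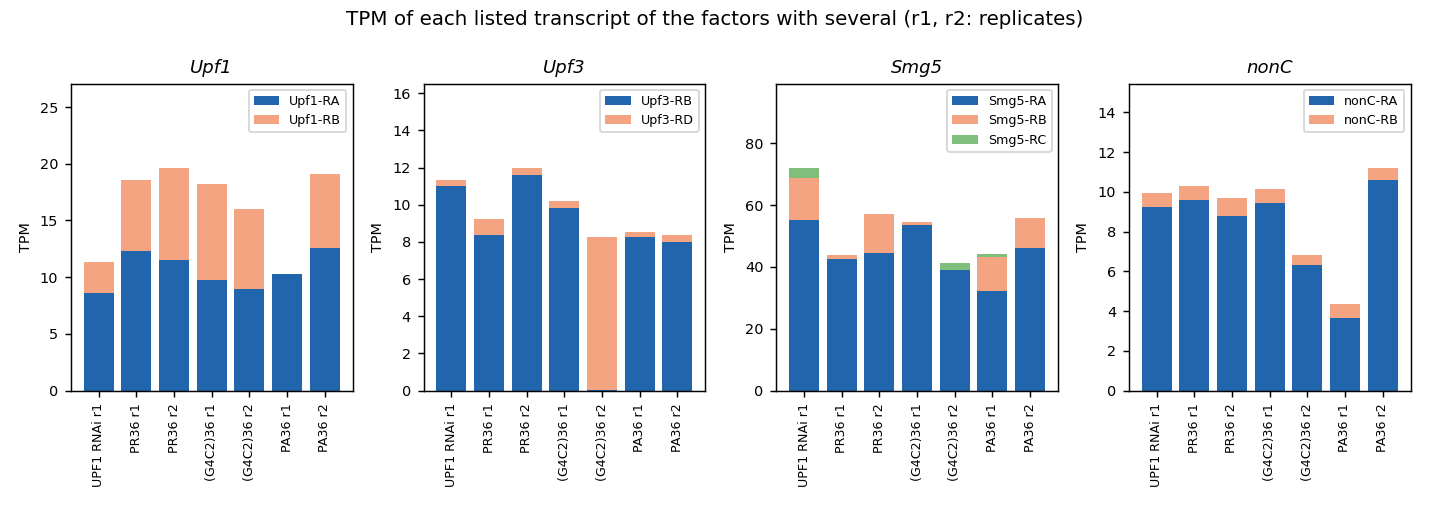
TPM (vertical axis, from 0) of each listed transcript of Upf1, Upf3, Smg5 and nonC, stacked per library, with the transcripts of a gene in different colours. Upf1-RB is listed at 0 in PA36 replicate 1, and Upf3 is carried by Upf3-RD at 8.27 TPM in (G4C2)36 replicate 2 alone.

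Smg6, which has a single transcript, had the clearest separation. It stood at 73.2 TPM in UPF1 RNAi, 43.4 and 46.5 TPM for PR36, 52.5 and 38.2 TPM for (G4C2)36 and 37.3 and 43.6 TPM for PA36. The knockdown library thus lay above the 6 others, which lay between 37.3 and 52.5 TPM. After rescaling by the median of ratios, which removes a shift common to most genes, the values were 72.0 TPM in UPF1 RNAi and between 41.4 and 44.4 TPM in the 6 others. The log2 fold change against PA36 was 0.85 (95% interval 0.18 to 1.52, unadjusted p = 0.020, limma adjusted p = 0.57), a value above 94.6% of all genes. Against the mean of the other genotypes it was 0.75 (95% interval 0.16 to 1.34, limma adjusted p = 0.52). Adjusted over all genes neither passed. Against the mean of the other genotypes, the adjusted p lay between 0.097 and 1 over 13 alternatives, and was smallest with the rescaled values, with a log2 fold change of 0.73.

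The adaptor gene Smg5 stood at 71.9 TPM in UPF1 RNAi, 44.0 and 57.0 TPM for PR36, 54.4 and 41.2 TPM for (G4C2)36 and 44.2 and 55.8 TPM for PA36. It too was highest in the knockdown library. Its log2 fold change against PA36 was 0.53 (95% interval -0.20 to 1.25, limma adjusted p = 0.94), and against the mean of the other genotypes 0.54 (95% interval -0.10 to 1.18, adjusted p = 0.84). As listed, Smg5 and Smg6 were the 2 of 6 factors higher in UPF1 RNAi than in every other library. That position was held by 15.1% of all genes tested. No factor was lower than in every other library, where 13.9% of genes were. After rescaling by the median of ratios Upf1 was lower, at 11.15 TPM against 11.4 TPM in PA36 replicate 1. Upf3 was then higher than in every other library, at 11.12 TPM against 10.91 TPM in PR36 replicate 2. The shares of genes at that scale were not computed. The leading transcript Smg5-RA had 55.1 TPM in UPF1 RNAi, and 32.3 to 53.6 TPM in the 6 other libraries. Smg5-RC, the least listed transcript of the gene, had 3.29 TPM in UPF1 RNAi and 0 to 2.15 TPM in the 6 others.

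Relative to Upf1, the partner genes were highest in the knockdown. The ratio of Smg6 to Upf1 was 6.46 in UPF1 RNAi, 2.33 and 2.37 in PR36, 2.88 and 2.38 in (G4C2)36, and 3.63 and 2.28 in PA36. The ratio of Smg5 to Upf1 was 6.34 in UPF1 RNAi, 2.36 and 2.91 in PR36, 2.98 and 2.57 in (G4C2)36, and 4.31 and 2.92 in PA36. For both, the second-highest library was PA36 replicate 1, in which Upf1-RB was listed at 0. The ratios of Upf2 and nonC to Upf1 were highest in UPF1 RNAi too, at 0.63 and 0.88. In the 6 other libraries they lay between 0.35 and 0.56 and between 0.43 and 0.58. All ratios to Upf1 share its level as the divisor, which was 11.3 TPM in UPF1 RNAi. The ratio of Smg6 to Smg5 stayed between 0.78 and 1.02 over all 7 libraries and was also highest in UPF1 RNAi. These ratios are given as descriptions of single libraries, with no test and no share over all genes.

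**Figure D3:**
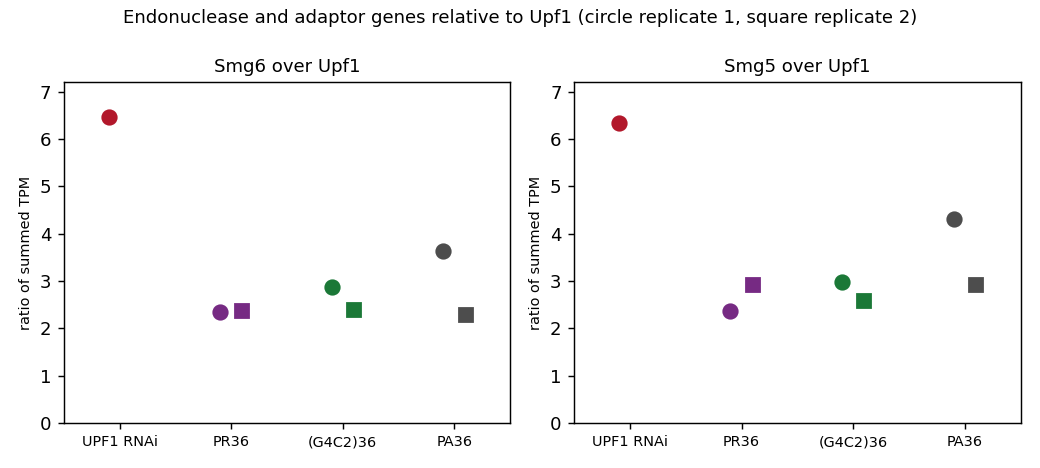
Ratio of the summed TPM of Smg6 (left) and Smg5 (right) to that of Upf1 (vertical axes, from 0) in each library, by genotype, with a point per library. UPF1 RNAi stands at 6.46 and 6.34, and the 6 other libraries lie between 2.28 and 4.31.

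Upf2, the scaffold between Upf1 and Upf3, had 7.13 TPM in UPF1 RNAi, 8.62 and 7.28 TPM for PR36, 7.89 and 5.64 TPM for (G4C2)36, and 5.73 and 6.62 TPM for PA36. The knockdown and PR36 libraries lay above both PA36 libraries, and those of (G4C2)36 lay on either side. The log2 fold changes against PA36 were 0.18 in UPF1 RNAi, 0.32 in PR36 and 0.10 in (G4C2)36 (limma adjusted p = 0.97, 1 and 0.96). Of the 6 factors, Upf2 and Upf3 varied least over the libraries, with ranges of 0.53 and 0.48 on the log2 scale, lower than in most genes.

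Upf3 summed to 11.3 TPM in UPF1 RNAi, 9.23 and 12.0 TPM for PR36, 10.2 and 8.28 TPM for (G4C2)36, and 8.54 and 8.37 TPM for PA36. Its log2 fold changes against PA36 were 0.38, 0.28 and 0.11 (limma adjusted p = 0.96, 1 and 0.96). The sum hid an exchange of transcripts in 1 library. Upf3-RB, with a 5′ UTR of 220 nt, carried between 90.9% and 97.1% of the gene's TPM in 6 libraries, and 0.127% in (G4C2)36 replicate 2. There Upf3-RD, with a 5′ UTR of 82 nt and the same coding exons, had 8.27 TPM against 0.288 to 0.842 TPM elsewhere. The other (G4C2)36 library had 9.81 TPM of Upf3-RB and 0.389 TPM of Upf3-RD, like the libraries of the other genotypes, so the exchange did not follow the genotype. Among 4208 genes with several listed transcripts and at least 5 TPM in every library, 13 (0.309%) lost their leading transcript in (G4C2)36 replicate 2 alone, against 14 to 25 genes in each other library. Losing it means a share under 10% here and of at least 50% in all the others.

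The kinase gene nonC, the longest of the 6 with 9654 coding nt, stood at 9.96 TPM in UPF1 RNAi, 10.3 and 9.70 TPM for PR36, and 10.1 and 6.83 TPM for (G4C2)36. In PA36 it had 4.38 and 11.2 TPM, the lowest and the highest of all libraries. The control replicates differed by 1.18 on the log2 scale, more than in 94.3% of genes, where the median gene differed by 0.26. Upf1 was similar, with a difference of 0.84 between the PA36 replicates, more than in 90.4% of genes. Fold changes of nonC against PA36 of 0.44 in UPF1 RNAi, 0.44 in PR36 and 0.20 in (G4C2)36 (limma adjusted p = 0.96, 1 and 0.95) therefore rest on a control whose libraries span the others. Without PA36 replicate 1 they were -0.15, -0.15 and -0.39 (adjusted p = 1 each). The low library was low in nonC-RA, at 3.65 TPM against 6.30 to 10.6 TPM in the others, while nonC-RB, with a longer 3′ UTR, was within 0.522 to 0.921 TPM in all 7.

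PR36 and (G4C2)36 against PA36 ask whether the toxic repeats altered the NMD machinery itself. All 6 factors had fold changes above 0 in PR36 and 5 of 6 in (G4C2)36, with medians of 0.30 and 0.13 on the log2 scale, where the median over all genes was 0.13 in both. After rescaling by the median of ratios, which put the median of all genes at 0.0065 in PR36 and 0.014 in (G4C2)36, Smg5 was at -0.12 in PR36, and Upf2 and Upf3 were at -0.012 and -0.0078 in (G4C2)36. Upf1 had log2 fold changes of 0.42 in PR36 (95% interval -0.30 to 1.14) and 0.27 in (G4C2)36 (-0.46 to 0.99), and without PA36 replicate 1 these were -0.0034 and -0.15. Smg5 and Smg6, which stood apart in the knockdown, were at 0.01 and 0.15 in PR36, with 95% intervals of -0.58 to 0.60 and -0.39 to 0.70. In (G4C2)36 they were at -0.07 and 0.15, with intervals of -0.66 to 0.52 and -0.40 to 0.69.

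Limma with Benjamini-Hochberg adjustment called 0 of the 6 factors in each of the 7 contrasts. Over all 9287 genes the share called was 0.625% in UPF1 RNAi against PA36, 0.194% in PR36 against PA36 and 0.388% in (G4C2)36 against PA36. It was 0.571% in UPF1 RNAi against the mean of the others, 0.431% in UPF1 RNAi against PR36, 0.581% in UPF1 RNAi against (G4C2)36 and 0.237% in PR36 against (G4C2)36. The 4 contrasts that involve UPF1 RNAi share its single library and are not separate findings. Across all 7 contrasts, at an unadjusted p below 0.05, Smg6 was the 1 factor found, in those 4. At that cut 6.4% of all genes lay in UPF1 RNAi against PA36, 7% against the mean of the others, 6.13% against PR36 and 7.49% against (G4C2)36. The shares were 3.39% in PR36 against PA36, 6.75% in (G4C2)36 against PA36 and 5.25% in PR36 against (G4C2)36, with 0 factors in each. Smg6 had a log2 fold change of 0.69 against PR36 (limma adjusted p = 0.78) and 0.70 against (G4C2)36 (adjusted p = 0.63). Of the 11 transcripts, 9 reached a mean of 1 TPM (all but Smg5-RC and nonC-RB) and 0 of these were called in the 3 contrasts with PA36, where 0.639%, 0.317% and 0.298% of all transcripts were. These shares stand for 101, 50 and 47 transcripts and rest on single libraries. The first was 0 without PR36 replicate 1, PR36 replicate 2 or PA36 replicate 2, the second was 0 without PR36 replicate 1 or PA36 replicate 2, and the third was 1 without (G4C2)36 replicate 1. At an unadjusted p below 0.05, 1 transcript was found in UPF1 RNAi (Smg6-RA), 0 in PR36 and 1 in (G4C2)36 (Smg5-RB), where 6.82%, 4.11% and 6.81% of all transcripts were, so 1 of 9 is close to the background. Smg5-RB, with a 3′ UTR of 994 nt, stood at 13.6 TPM in UPF1 RNAi and 1.34 and 12.5 TPM for PR36. In (G4C2)36 it was listed at 0.796 and 0 TPM, against 10.9 and 9.78 TPM in PA36 (limma adjusted p = 0.56). PR36 replicate 1 was thus low too, so low values of this transcript were not confined to (G4C2)36. A p that misses the threshold does not show that levels were alike: over the 6 factors and 3 genotypes, the upper ends of the 95% intervals against PA36 lay between 0.52 and 1.61 on the log2 scale.

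Where libraries did not overlap at all, the shares of all genes were large, since 1 or 2 libraries a group separate easily. The counts below are of listed TPM, and some positions turned after rescaling by the median of ratios. Upf3 then overlapped between PR36 (9.357 and 10.91 TPM) and PA36 (9.488 and 8.325 TPM). Upf1 in UPF1 RNAi, at 11.15 TPM, then lay below both PA36 libraries. Smg5 in (G4C2)36 (46.07 and 44.97 TPM) then lay below PA36 (49.12 and 55.57 TPM). Upf2 in UPF1 RNAi (7.007 TPM) then lay between the PR36 values (8.738 and 6.639 TPM), while Upf3 (11.12 TPM) lay above PR36. Without overlap, UPF1 RNAi then also exceeded (G4C2)36 in Upf2 and nonC, and PR36 exceeded (G4C2)36 in Upf3 and nonC. The shares of all genes at that scale were not computed. In UPF1 RNAi 4 of 6 factors (Upf2, Upf3, Smg5 and Smg6) were higher than in both PA36 libraries, as were 45% of all genes, and 0 were lower, as were 25.9%. In PR36 2 factors (Upf2 and Upf3) were higher than in PA36 without overlap, as were 27% of genes, and 0 were lower (6.72%). As listed, no factor separated (G4C2)36 from PA36, where 24.2% of genes were higher and 8.21% lower. Set against PR36, the knockdown library was higher in Smg5 and Smg6 (31.3% of genes) and lower in Upf1 and Upf2 (37.4%). Set against (G4C2)36, it was higher in Upf3, Smg5 and Smg6 (25.3%) and lower in Upf1 (30.7%). PR36 was above (G4C2)36 without overlap in Upf1 (13.1%) and below it in 0 factors (13.3%).

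**Figure D4:**
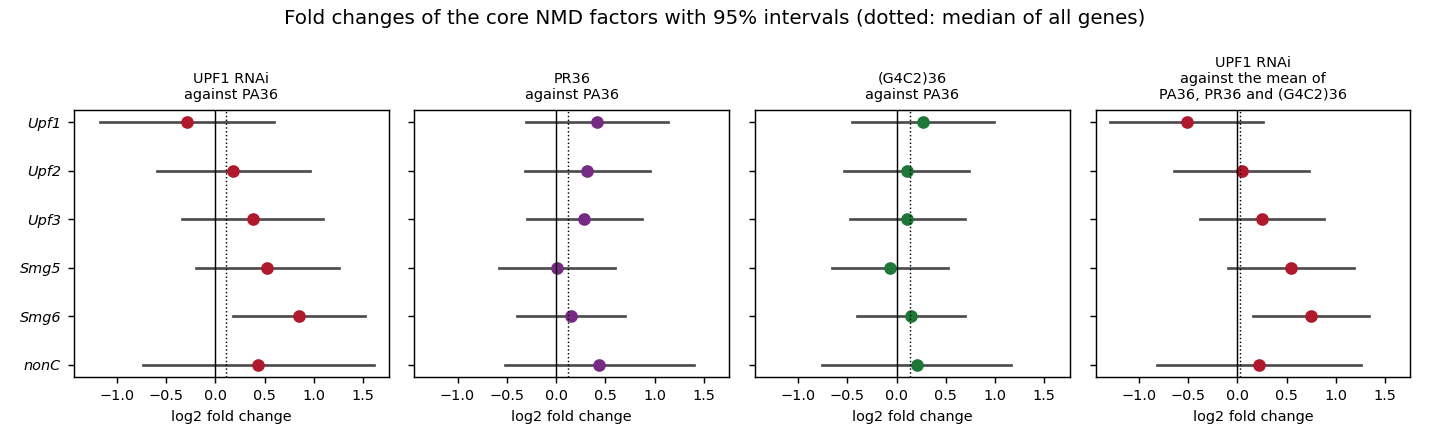
Log2 fold changes (horizontal axis) of the 6 factors in 4 contrasts, with bars for the 95% interval of the limma fit, a solid line at 0 and a dotted line at the median of all genes. The interval of Smg6 lies above 0 in both contrasts of UPF1 RNAi, at 0.85 and 0.75, and all others cross 0.

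Genes that act with the 6 factors did not pass either. The exon junction complex marks spliced mRNAs. None of 5 tested genes listed with it, as parts or as genes that act with it (mago, tsu, btz, ncm and Pym), was called against PA36. Their medians were -0.06 in UPF1 RNAi, 0.14 in PR36 and -0.05 in (G4C2)36 on the log2 scale. The 3 genes of translation termination (eRF1, eRF3 and pAbp) had medians of -0.05, 0.12 and 0.03, and the 2 of the nuclear cap-binding complex (Cbp80 and Cbp20) 0.34, 0.09 and 0.21. The 7 genes of decapping and 5′ decay had medians of 0.27, 0.21 and 0.13, with 6, 6 and 5 above 0. The 4 of deadenylation had 0.30, 0.34 and 0.12, and the 3 subunits of the phosphatase PP2A, which dephosphorylates Upf1, 0.11, 0.10 and 0.17. The siRNA genes that a knockdown relies on (Dcr-2, AGO2, r2d2 and loqs) had 0.12, 0.10 and 0.27. At an unadjusted p below 0.05, limma found 1 gene of these lists in (G4C2)36 against PA36 (AGO2 of the siRNA genes, named after its values were seen), where 6.75% of all genes were, and 0 in UPF1 RNAi and PR36. All these medians stand beside medians over all genes of 0.10, 0.13 and 0.13.

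Among the 4 reported substrates of the pathway (Arc1, Gadd45, Oda and tra), 1 was called against PA36 in each comparison. Over all genes, 0.625%, 0.194% and 0.388% were called in UPF1 RNAi, PR36 and (G4C2)36. The list was chosen with earlier results of these data known, so its calls are not independent support. In the same order, the log2 fold changes were 0.52, 0.08 and 0.17 for Oda and 0.82, 0.05 and 0.06 for tra. None of these was called after adjustment. All 4 substrates were above 0 in each comparison. At an unadjusted p below 0.05, limma found 4, 2 and 2 of them, where 6.4%, 3.39% and 6.75% of all genes were. The count of 4, which includes Oda and tra, rests on the single UPF1 RNAi library. In the knockdown library Gadd45, a stress gene, had 109 TPM against 15.1 and 18.3 TPM in PA36 (log2 fold change 2.64, limma adjusted p = 0.023). Arc1, a capsid-like gene of synapses, was called in PR36 (2.44, adjusted p = 0.017) and (G4C2)36 (1.83, adjusted p = 0.032), while no core factor was.

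Over the 7 libraries, Smg5 and Smg6 varied together most of the 15 pairs of factors (Pearson r = 0.90 of log2 values). The next were Upf2 with nonC (0.74), and Upf3 with Smg5 and Smg6 (0.72 each), and Upf1 had r = -0.18 with Smg6 and -0.09 with Smg5. These values describe 7 libraries, 6 of which share a genotype in pairs. They are of listed TPM, and Smg5 and Smg6 were both highest in UPF1 RNAi. After rescaling by the median of ratios, the 6 others lay between 44.6 and 55.6 TPM in Smg5 and between 41.4 and 44.4 TPM in Smg6. No r was computed after rescaling or without UPF1 RNAi. The genes whose levels were most like each factor's were Obp18a (r = 0.98) and CR45144 (0.97) for Upf1, and CG9213 (0.98) and CG33158 (0.97) for Upf2. For Upf3 they were Schip1 (0.98) and rux (0.97), for Smg5 Hr3 (0.99) and CG9422 (0.98), and for Smg6 Grip84 (0.99) and CG9386 (0.99). CycT (1.00) and SNF4Agamma (0.99) were most like nonC. They were picked as the highest of 9287 genes over 7 libraries and are descriptions.

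Markers of the cells of a head differed between these libraries as well, and no marker matched was listed at 0. The summed level of 5 neuron markers was 903 TPM in UPF1 RNAi, 1144 and 1241 TPM for PR36, 1155 and 1177 TPM for (G4C2)36, and 879 and 1159 TPM for PA36. The gene elav, which names the driver, had 58.9 TPM in UPF1 RNAi and 31.0 TPM in PA36 replicate 1, its lowest value, against 43.2 to 62.1 TPM in the 5 others. The library with the lowest listed Upf1 and nonC was therefore also the lowest in elav, as it was in Syt1 and para. Its para, at 0.14 TPM, was near the floor, as were the 0.41 and 0.26 TPM of (G4C2)36. It was not the lowest in the other neuron markers, nSyb (609 TPM) and brp, at 9.62 TPM against 0.13 TPM in PR36 replicate 1. The synaptic vesicle gene nSyb was lowest in UPF1 RNAi, at 420 TPM against 609 to 833 TPM in the 6 others (log2 fold change -0.82 against the mean of the other genotypes, unadjusted p = 0.0061, limma adjusted p = 0.30). The other 4 neuron markers were not at their lowest in UPF1 RNAi, and Syt1 was at its highest, with 403 TPM against 229 to 375 TPM. Photoreceptor markers summed to 33587 TPM in UPF1 RNAi and 23709 to 31831 TPM in the others. Glial markers summed to 1003 TPM there and 909 to 1492 TPM elsewhere, muscle markers to 315 and 303 to 745 TPM, hemocyte markers to 35.5 and 32.7 to 77.5 TPM. Fat body markers summed to 48740 TPM in UPF1 RNAi and 38723 to 126240 TPM in the others. Of these, apolpp was highest in UPF1 RNAi, at 1919 TPM, and lowest in PR36, at 339 and 149 TPM. Yp1, Yp2 and Yp3, which make up most of the sum, were not highest in UPF1 RNAi. The 5 heat shock genes summed to 5924 TPM in PR36 replicate 1 and 4592 TPM in PA36 replicate 1, against 49.3 to 448 TPM in the 5 others. The part of these in the levels of the factors was not tested.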

How the data were processed

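The authors deposited 1 table of TPM per transcript. Per the submitters' processing notes, bcl2fastq, HISAT2 2.1 and HISAT were used on BDGP6. The program behind the TPM, its annotation and its handling of strand are not named in the labels or the table. Its header holds 10 names for 11 cells a line. Names were read from the left, on which every assignment rests, and 1 unnamed value column was not used, so 7 of 8 libraries enter. Listed TPM summed to between 712972 and 877933 per library.

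Transcripts were summed per gene and analysed as log2(TPM + 1), which understates changes of low genes. Genes and, separately, transcripts whose TPM averaged 1 or more were fitted with limma 3.58.1 (R 4.3.3), using a term for each genotype, moderation with a trend, two-sided tests and Benjamini-Hochberg adjustment over all features of a contrast, called below 0.05. UPF1 RNAi, with 1 library, is assumed to vary like the others. Residual degrees of freedom were 3. The fit was tested on simulated data with independent libraries of the same spread, which cannot test whether UPF1 RNAi varies like the others. Alternatives were a pseudocount of 0.1, no filter, 2 rescalings, no trend, fits on the groups compared, the replicate number as a block, and left-out libraries. Members and lists were chosen with earlier results of these data known. The named genes are the 6 factors, called members of the lists, and for each factor the 2 genes with the highest Pearson r. Lists covered the pathway's partners, 4 reported substrates, heat shock and head cell types. Germline markers and eIF4A3 were not analysed here. Positions are 1-based, from the Ensembl release 115 annotation of BDGP6. Tables and figures used Python 3.11.15, pandas 2.3.3, numpy 2.4.6 and matplotlib 3.10.9.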

Additional observations from a re-analysis of the deposited data

How the results depend on the processing

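Under all 14 alternatives (13 for the contrast of 4 genotypes), the count of factors called stayed at 0 of 6 in each of the 7 contrasts, and that of transcripts at 0 in each of 3. Of 582 alternative values of single factors, 543 kept their sign and 39 turned it, none of them called. Deviations of libraries with the same replicate number were hardly correlated over all genes (0.097, -0.074 and -0.077 over 9287 genes). A value over all genes cannot show pairing in a part of them. The heat shock genes were high in replicate 1 of both PR36 and PA36 (5924 and 4592 TPM) and low in replicate 2 of both (66.3 and 49.3 TPM). With the replicate number as a block, 0 factors were called and the limma adjusted p of Smg6 in UPF1 RNAi against PA36 was 0.85. Against PA36 the block called 66, 33 and 57 of all genes in UPF1 RNAi, PR36 and (G4C2)36, where the fit without it called 58, 18 and 36. In UPF1 RNAi and PR36 against (G4C2)36 it called 87 and 44, without the block 54 and 22. It called 5, 7 and 0 of all transcripts against PA36, without the block 101, 50 and 47. Over all alternatives these counts of genes ran between 3 and 239, 7 and 191, and 24 and 282, with the highest of each without the 2 libraries high in heat shock genes. Those of transcripts ran between 0 and 396, 0 and 70, and 0 and 94, the highest with no filter in UPF1 RNAi and with no trend in the others. Of the factors, Upf2 turned to -0.033 (UPF1 RNAi against the mean of the others) and nonC to 0.10 (UPF1 RNAi against PR36) with the block. The cause was not tested.

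Rescaling to equal listed totals and by the median of ratios turned Upf2 (-0.0032 and -0.012, (G4C2)36 against PA36), Smg5 (-0.036 and -0.12, PR36 against PA36) and nonC (0.12 and 0.025, UPF1 RNAi against PR36). The second also turned Upf3 to -0.0078 ((G4C2)36 against PA36). Leaving out PA36 replicate 1 and PR36 replicate 1 together, the 2 libraries high in heat shock genes, Upf1 was at -0.15 ((G4C2)36 against PA36), Upf3 at -0.075 and nonC at 0.034 (UPF1 RNAi against PR36). That setting put nonC at -0.15, -0.19 and -0.39 in UPF1 RNAi, PR36 and (G4C2)36 against PA36.

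Leaving out 1 library at a time gave these ranges. Against PA36, UPF1 RNAi had Upf1 at -0.71 to 0.13 and nonC at -0.15 to 1.03. PR36 had Upf1 at -0.0034 to 0.84, Smg5 at -0.17 to 0.19 and nonC at -0.15 to 1.03. (G4C2)36 had Upf1 at -0.15 to 0.68, Upf2 at -0.11 to 0.31, Upf3 at -0.026 to 0.24, Smg5 at -0.27 to 0.13, Smg6 at -0.08 to 0.37 and nonC at -0.39 to 0.80. UPF1 RNAi against PR36 had Upf3 at -0.075 to 0.27 and nonC at -0.040 to 0.034. UPF1 RNAi against (G4C2)36 had Upf2 at -0.13 to 0.29 and nonC at -0.021 to 0.49. PR36 against (G4C2)36 had Smg5 at -0.12 to 0.28, Smg6 at -0.22 to 0.23 and nonC at -0.018 to 0.49. UPF1 RNAi against the mean of the others had Upf2 at -0.027 to 0.11. Smg6 in UPF1 RNAi against PA36 stayed at 0.74 to 0.96.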
